A study of Mus musculus with 9 samples.

Results

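The genes described here encode secreted proteins that act on Wnt signalling outside the cell, measured in mouse cardiac fibroblasts and cardiomyocytes. They are the secreted frizzled-related proteins Sfrp1, Sfrp2, Sfrp4, Sfrp5 and Frzb, the Dickkopf proteins Dkk2 and Dkk3, and the noncanonical ligands Wnt5a and Wnt11. They were chosen by name, with earlier results of these data known. Each was read from its probe with the highest mean over all arrays among probes annotated to a single gene. All 9 had such a probe, out of 19933 genes measured this way, and all 9 lay above the 30th percentile of probe means. Expression came from 9 arrays (Affymetrix mouse Gene 1.0 ST), and each of the 3 groups held 3 samples that the series calls biological replicates. The groups were adult cardiac fibroblasts, embryonic cardiac fibroblasts, and embryonic cardiomyocytes marked by an Nkx-YFP reporter. The series was set up to look for factors made by fibroblasts that promote the proliferation of myocytes. The labels do not state the strain, the embryonic stage, the age or sex of the adults, how fibroblasts were isolated or whether they were grown in culture.

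Wnt proteins are secreted ligands that bind Frizzled receptors. In the canonical branch they bind Frizzled together with the co-receptors Lrp5 or Lrp6, which stabilises beta-catenin and lets it act with TCF/LEF factors on target genes. In the noncanonical branches, ligands such as Wnt5a and Wnt11 act on cell polarity and intracellular calcium without beta-catenin. Sfrp proteins, Frzb among them, carry a Frizzled-like cysteine-rich domain and bind Wnt ligands directly, whereas Dickkopf proteins of the Dkk2 kind bind Lrp5 and Lrp6. In the heart, canonical Wnt signalling has roles that depend on stage in the specification and growth of cardiac progenitors, and noncanonical Wnt5a and Wnt11 take part in the shaping of the outflow tract.

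The arrays were comparable in overall level, with medians between 7.602 and 7.651 on the log2 scale, and 1 of them stood apart. Adult replicate 3 had a mean correlation of 0.9699 with its group across probes, against 0.9813 to 0.9941 for the other 8 arrays, and an SD over probes of 1.71 against 1.83 to 1.90. Leaving it out ended none of the 13 called differences described below, and those that involve adult cells are given without it too. All 3 Y-linked genes examined (Eif2s3y, Kdm5d and Uty) lay lower on every adult array than on any embryonic array, so sex and age cannot be told apart in comparisons with adult cells. Markers of more than 1 cell type were measured in each group, and whether other cells were present was not tested. Summed over 12 fibroblast markers, the unlogged level ran from 37093 to 42592 in adult fibroblasts, 15393 to 17845 in embryonic fibroblasts and 5123 to 6671 in cardiomyocytes. Over 12 cardiomyocyte markers it ran from 3289 to 5503 in adult fibroblasts, 39456 to 54084 in embryonic fibroblasts and 77660 to 82397 in cardiomyocytes. The cardiac troponin gene Tnnt2 averaged 9.83 in adult fibroblasts, 13.38 in embryonic fibroblasts and 13.82 in cardiomyocytes on the log2 scale, and its adjusted p between the embryonic groups was 0.328. The cardiac transcription factor gene Nkx2-5 averaged 8.23 in adult fibroblasts, 8.25 in embryonic fibroblasts and 8.30 in cardiomyocytes, so its probe did not set the reporter-marked cells apart. RMA values have no true zero, so no marker can be said to be absent. In bulk RNA, fewer cells of a type and less RNA per cell cannot be told apart.

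Antagonists of the same family followed different patterns over the 3 groups. Frzb and Sfrp4 were highest in adult fibroblasts, Sfrp2 and Dkk2 were highest in embryonic fibroblasts, and Sfrp1 was highest in cardiomyocytes. Wnt5a was higher in cardiomyocytes than in adult fibroblasts, and Sfrp5, Dkk3 and Wnt11 passed the test in no comparison. Differences were fitted with limma on all 9 arrays and called at an adjusted p under 0.05 over the 19933 genes. Between adult and embryonic fibroblasts, 5 of 9 genes were called, 2 higher and 3 lower in the adult cells, where 19.5% of all genes were called (8.34% higher, 11.2% lower). Between embryonic fibroblasts and cardiomyocytes, 4 of 9 were called, 3 higher and 1 lower in the fibroblasts, where the share over all genes was 21.4% (10.3% higher, 11.1% lower). Between adult fibroblasts and cardiomyocytes, 4 of 9 were called, 2 higher and 2 lower in the fibroblasts, where the share over all genes was 35.6% (17.4% higher, 18.2% lower). With 9 genes these counts are small, and the last lies close to that share. The genes were chosen with earlier results of these data known. These counts and the sizes of difference below therefore do not test them against all genes. The arrays of the groups did not overlap for 6, 4 and 5 of the 9 genes in these comparisons in turn, where 33.0%, 39.1% and 45.9% of all genes had such a separation.

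The 9 genes had no common direction. Their median difference was -0.25 for adult minus embryonic fibroblasts, 0.10 for embryonic fibroblasts minus cardiomyocytes and 0.07 for adult fibroblasts minus cardiomyocytes on the log2 scale, beside medians over all genes of 0.04, -0.0003 and 0.06. The median size of the difference, sign set aside, was 0.60 in adult against embryonic fibroblasts, where that of all genes was 0.158. It was 0.38 against 0.144 for all genes between the embryonic groups, and 0.216 against 0.212 for adult fibroblasts and cardiomyocytes. The comparisons share groups, so their calls are not independent of each other. Sfrp1 and Frzb were called in all 3 comparisons, Sfrp2, Sfrp4 and Dkk2 in 2 and Wnt5a in 1.

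**Figure D1:**
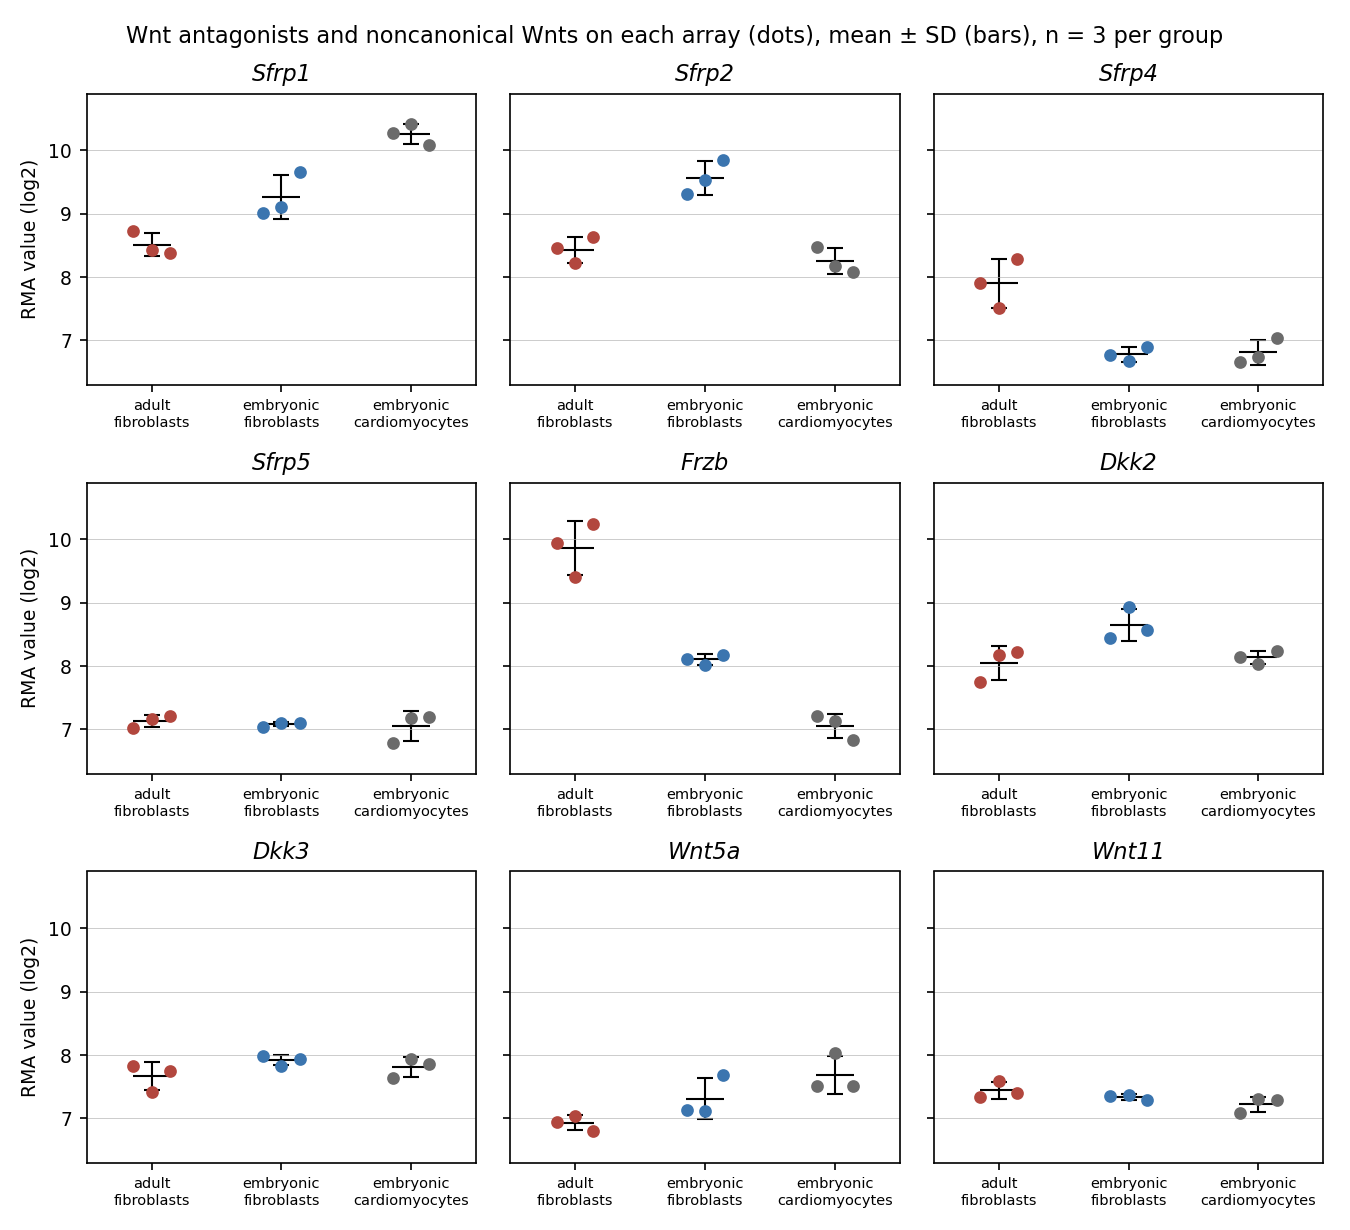
RMA log2 value of each gene on each of the 9 arrays, by group (adult fibroblasts, embryonic fibroblasts, embryonic cardiomyocytes). Each point is an array and each bar a group mean. Frzb steps down over the 3 groups, Sfrp1 steps up, and Sfrp2 peaks in embryonic fibroblasts; levels are not comparable between genes, since each has its own probe.

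**Figure D2:**
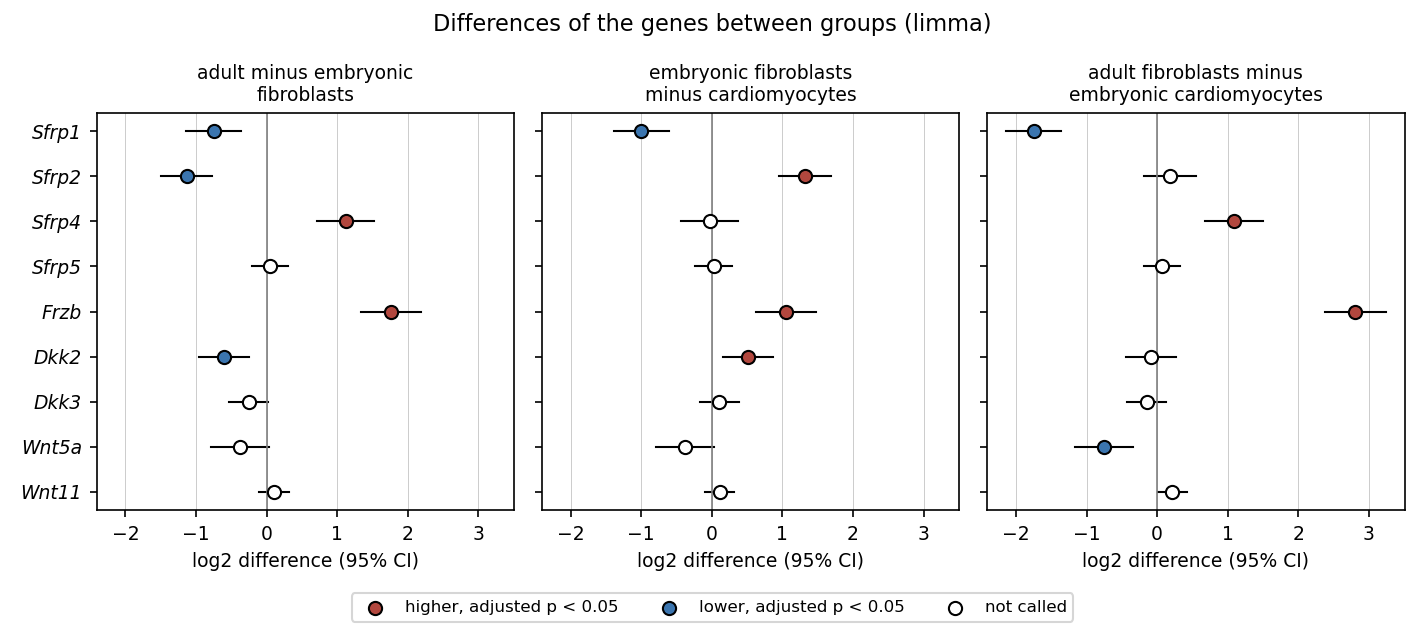
Log2 difference of each gene in the 3 comparisons, with its 95% confidence interval from limma (x axis, log2 units; first-named group minus second). Filled points passed an adjusted p under 0.05 over all 19933 genes; Frzb in adult fibroblasts minus cardiomyocytes has the difference farthest from 0, at 2.81.

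Frzb, also called Sfrp3, was first known as a Wnt-binding protein of developing cartilage and skeleton. Its values in replicates 1 to 3 were 9.95, 9.41 and 10.25 in adult fibroblasts, 8.12, 8.02 and 8.18 in embryonic fibroblasts, and 7.21, 7.13 and 6.84 in cardiomyocytes, on the log2 scale. Every adult array lay above every embryonic fibroblast array, and every embryonic fibroblast array above every cardiomyocyte array. The means were 9.87 ± 0.43 in adult fibroblasts, 8.11 ± 0.08 in embryonic fibroblasts and 7.06 ± 0.19 in cardiomyocytes (SD, n = 3 each). Frzb was 3.4-fold higher in adult than in embryonic fibroblasts (log2 difference 1.76 ± 0.19 SE, limma adjusted p = 0.000202). It was 2.07-fold higher in embryonic fibroblasts than in cardiomyocytes (1.05 ± 0.19, adjusted p = 0.0039). Adult fibroblasts exceeded cardiomyocytes 7.02-fold (2.81 ± 0.19, 95% confidence interval 2.38 to 3.24, adjusted p = 3.52e-06). Each neighbouring pair in the order of levels therefore differed by more than the spread between arrays. Adult replicate 3 was the highest array; without it the difference was 1.57 from embryonic fibroblasts and 2.62 from cardiomyocytes, and both stayed called. The order of Frzb was that of the summed fibroblast markers given above and of 13 macrophage markers, whose sums ran from 6356 to 11161 in adult fibroblasts, 4156 to 5709 in embryonic fibroblasts and 2467 to 2792 in cardiomyocytes. Of these 13, 6 were called higher and 1 lower in adult than in embryonic fibroblasts, and 8 higher in embryonic fibroblasts than in cardiomyocytes. The 12 fibroblast markers were not uniform between the fibroblast groups, with 8 called higher, 1 lower (Col3a1, -0.54) and 3 not called in adult cells. All 12 were called higher in embryonic fibroblasts than in cardiomyocytes. The part of these markers in the Frzb result was not tested.

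Sfrp4, another Wnt-binding member of the family, shared the adult maximum of Frzb but not its step between the embryonic groups. It had values of 7.90, 7.52 and 8.29 in adult fibroblasts, 6.78, 6.67 and 6.90 in embryonic fibroblasts and 6.66, 6.74 and 7.03 in cardiomyocytes. All adult arrays lay above all embryonic arrays, and the embryonic groups overlapped. Adult fibroblasts averaged 7.90 ± 0.39, embryonic fibroblasts 6.78 ± 0.12 and cardiomyocytes 6.81 ± 0.19 (SD, n = 3 each). Sfrp4 was 2.17-fold higher in adult than in embryonic fibroblasts (1.12 ± 0.18 SE, limma adjusted p = 0.00202) and 2.13-fold higher than in cardiomyocytes (1.09 ± 0.18, adjusted p = 0.00107). Between embryonic fibroblasts and cardiomyocytes the difference was -0.03, with a 95% confidence interval of -0.44 to 0.38 (adjusted p = 0.944). Without adult replicate 3, the highest array, the adult differences were 0.93 from embryonic fibroblasts and 0.90 from cardiomyocytes, and both stayed called. The embryonic means lay below the 30th percentile of probe means, 6.91, where RMA compresses differences. The macrophage marker sums given above, and those of fibroblasts, were also highest on the adult arrays, and their part in the Sfrp4 result was not tested.

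Sfrp2, which is known in the heart from work on repair after infarction, and Dkk2, a ligand of Lrp5 and Lrp6, were both highest in embryonic fibroblasts. The windows around their transcription starts are shown because both genes peaked in the same group, and that of Frzb is shown beside them for its opposite direction between the fibroblast groups. The windows come from RefSeq (GRCm38.p6) and run from 250 bases before to 50 bases after the start, 5′ to 3′ on the strand of the gene. They lie at chr3:83766071-83766370 on the plus strand for Sfrp2, chr3:132085042-132085341 on the plus strand for Dkk2 and chr2:80447347-80447646 on the minus strand for Frzb. RefSeq windows were matched for 5 of the 9 genes. Capitals mark matches on either strand to the motifs searched. These were the core of the TCF/LEF site, spelled CTTTGA, the sequence of the TATA box, spelled with the letters TATAAA, and the AP-1 site, whose letters are TGANTCA.
Sfrp2: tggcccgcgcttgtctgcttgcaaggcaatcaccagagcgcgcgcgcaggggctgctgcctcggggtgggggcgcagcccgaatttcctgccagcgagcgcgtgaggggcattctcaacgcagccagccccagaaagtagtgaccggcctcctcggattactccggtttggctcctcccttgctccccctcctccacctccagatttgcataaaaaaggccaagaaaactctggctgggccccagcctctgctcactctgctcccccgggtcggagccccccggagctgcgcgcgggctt
Dkk2: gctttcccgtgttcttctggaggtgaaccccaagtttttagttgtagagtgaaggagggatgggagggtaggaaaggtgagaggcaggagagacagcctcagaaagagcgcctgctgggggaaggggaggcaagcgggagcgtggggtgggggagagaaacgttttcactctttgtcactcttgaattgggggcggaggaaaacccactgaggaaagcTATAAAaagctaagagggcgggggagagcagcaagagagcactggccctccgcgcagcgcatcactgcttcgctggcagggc
Frzb: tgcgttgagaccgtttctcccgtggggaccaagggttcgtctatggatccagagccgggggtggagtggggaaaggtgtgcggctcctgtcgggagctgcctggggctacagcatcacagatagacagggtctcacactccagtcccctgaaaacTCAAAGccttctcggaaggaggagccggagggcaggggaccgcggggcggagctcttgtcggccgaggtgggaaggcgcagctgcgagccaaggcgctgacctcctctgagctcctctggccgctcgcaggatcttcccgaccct
The Dkk2 window held TATAAA with its first base 32 bases before the start. The Frzb window held TCAAAG, the reverse strand of CTTTGA, with its first base 95 bases before the start. None of the motifs was in the Sfrp2 window, so these letters were not shared by the genes that peaked in embryonic fibroblasts. Wnt11, which passed the test in no comparison, had both sequences in a window not shown. TCAAAG began 50 and TATAAA 29 bases before its start. Over 32851 windows of the same length, CTTTGA was in 16.0%, TATAAA in 13.6% and TGANTCA in 7.81%. CpG pairs numbered 22 in the Sfrp2 window, 11 in that of Dkk2 and 20 in that of Frzb, where the median over all windows was 7. A match is a match of letters only, and no binding was measured.

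Sfrp2 had values of 8.46, 8.22 and 8.63 in adult fibroblasts, 9.32, 9.54 and 9.85 in embryonic fibroblasts and 8.48, 8.18 and 8.09 in cardiomyocytes. All embryonic fibroblast arrays lay above all other arrays, and the adult fibroblast and cardiomyocyte arrays overlapped. The means were 8.43 ± 0.21 in adult fibroblasts, 9.57 ± 0.27 in embryonic fibroblasts and 8.25 ± 0.21 in cardiomyocytes (SD, n = 3 each). Adult fibroblasts were 2.19-fold lower than embryonic fibroblasts (-1.13 ± 0.16 SE, limma adjusted p = 0.00104), and the difference was -1.23 without adult replicate 3. Embryonic fibroblasts were 2.49-fold higher than cardiomyocytes (1.32 ± 0.16, adjusted p = 0.000577). Adult fibroblasts and cardiomyocytes differed by 0.18, with a 95% confidence interval of -0.18 to 0.55 (adjusted p = 0.423).

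Dkk2 shared the embryonic fibroblast maximum of Sfrp2, with smaller differences. It had values of 7.75, 8.18 and 8.23 in adult fibroblasts, 8.44, 8.94 and 8.57 in embryonic fibroblasts and 8.14, 8.04 and 8.24 in cardiomyocytes. The embryonic fibroblast arrays again lay above all others, and the remaining groups overlapped, with means of 8.05 ± 0.27 in adult fibroblasts, 8.65 ± 0.26 in embryonic fibroblasts and 8.14 ± 0.10 in cardiomyocytes (SD, n = 3 each). Adult fibroblasts were 1.52-fold lower than embryonic fibroblasts (-0.60 ± 0.16 SE, limma adjusted p = 0.0259; -0.69 without adult replicate 3). Embryonic fibroblasts were 1.43-fold higher than cardiomyocytes (0.51 ± 0.16, adjusted p = 0.0477). Both Dkk2 calls were lost under several alternatives. Without embryonic fibroblast replicate 2, the highest array, the adjusted p was 0.0881 for adult against embryonic fibroblasts and 0.167 for embryonic fibroblasts against cardiomyocytes. Adult fibroblasts minus cardiomyocytes gave -0.09, with a 95% confidence interval of -0.45 to 0.27 (adjusted p = 0.71). Among the marker lists, the summed level of 12 epicardial or mesothelial genes was also highest in embryonic fibroblasts, at 2840 to 3072 in adult fibroblasts, 4383 to 5188 in embryonic fibroblasts and 3119 to 3281 in cardiomyocytes. Of these 12, 8 were called lower in adult than in embryonic fibroblasts, and 5 higher in embryonic fibroblasts than in cardiomyocytes. Of 8 Schwann or glial markers, Fabp7 alone followed that pattern, with means of 7.76 in adult fibroblasts, 10.48 in embryonic fibroblasts and 7.78 in cardiomyocytes, while Cdh19 was called higher in adult fibroblasts and the other 6 were called in no comparison. Of the endothelial or endocardial markers, 3 of 12 were called lower in adult than in embryonic fibroblasts, with sums of 6343 to 14660 in adult fibroblasts that overlapped the 12797 to 17461 in embryonic fibroblasts. Of the same 12, 11 were called higher in embryonic fibroblasts than in cardiomyocytes, whose sums were 4839 to 6706. The part of these markers in the Sfrp2 and Dkk2 results was not tested.

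Sfrp1, which binds several Wnt ligands and is expressed widely in the embryo, ran in the order opposite to that of Frzb. Its values were 8.72, 8.43 and 8.38 in adult fibroblasts, 9.02, 9.10 and 9.66 in embryonic fibroblasts and 10.28, 10.41 and 10.09 in cardiomyocytes. No 2 groups overlapped, and embryonic fibroblast replicate 3 stood closest to the cardiomyocytes. The group means were 8.51 ± 0.18 in adult fibroblasts, 9.26 ± 0.35 in embryonic fibroblasts and 10.26 ± 0.16 in cardiomyocytes (SD, n = 3 each). Sfrp1 was 1.68-fold lower in adult than in embryonic fibroblasts (-0.75 ± 0.17 SE, limma adjusted p = 0.0139). It was 2.0-fold lower in embryonic fibroblasts than in cardiomyocytes (-1.0 ± 0.17, adjusted p = 0.00307), and 3.37-fold lower in adult fibroblasts than in cardiomyocytes (-1.75 ± 0.17, adjusted p = 3.76e-05). With replicate 3 of both fibroblast groups left out, the difference between the fibroblast groups was -0.48 and still called (adjusted p = 0.035). Without adult replicate 3, the lowest array, Sfrp1 differed by -0.68 between the fibroblast groups and by -1.69 between adult fibroblasts and cardiomyocytes, and both stayed called. The order of Sfrp1 was that of the summed cardiomyocyte markers given above, of which 11 of 12 were called lower in adult than in embryonic fibroblasts and 8 of 12 lower in embryonic fibroblasts than in cardiomyocytes. Among 6 erythroid markers, 3 globin genes (Hbb-y, Hba-x and Hbb-bh1) had the same order and were called in each comparison, with Hbb-y at 6.52 in adult fibroblasts, 11.32 in embryonic fibroblasts and 12.76 in cardiomyocytes. The other 3 (Alas2, Epb42 and Slc4a1) were called in none. The 12 smooth muscle or pericyte markers were split, with 5 lower (Acta2, Cnn1, Des, Abcc9 and Cspg4) and 3 higher (Rgs5, Myh11 and Pdgfrb) in adult fibroblasts than in cardiomyocytes. The part of these markers in the results of Sfrp1, and of Wnt5a, which had the same order, was not tested.

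Of the remaining antagonists, Sfrp5, which is known to oppose Wnt5a in fat tissue, lay within a narrow range. Its arrays ran from 7.02 to 7.21 in adult fibroblasts, 7.05 to 7.10 in embryonic fibroblasts and 6.79 to 7.20 in cardiomyocytes, and all groups overlapped. Its differences were 0.05 for adult minus embryonic fibroblasts, 0.03 for embryonic fibroblasts minus cardiomyocytes and 0.07 for adult fibroblasts minus cardiomyocytes. The 95% confidence interval of the last was -0.19 to 0.33 (limma adjusted p = 0.666). Dkk3, a divergent member of the Dickkopf family, had values of 7.83, 7.42 and 7.75 in adult fibroblasts, 7.99, 7.83 and 7.94 in embryonic fibroblasts and 7.64, 7.93 and 7.86 in cardiomyocytes. Adult replicate 1 and embryonic fibroblast replicate 2 were equal, and the groups overlapped in every pair. Dkk3 averaged 7.67 ± 0.22 in adult fibroblasts, 7.92 ± 0.08 in embryonic fibroblasts and 7.81 ± 0.15 in cardiomyocytes (SD, n = 3 each). The difference of Dkk3 farthest from 0 was -0.25, for adult minus embryonic fibroblasts, with a 95% confidence interval of -0.53 to 0.03 (adjusted p = 0.205).

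Of the noncanonical ligands, Wnt5a was called in 1 comparison and Wnt11 in none. Wnt5a, which signals through Ror receptors among others, had values of 6.94, 7.04 and 6.81 in adult fibroblasts, 7.14, 7.11 and 7.68 in embryonic fibroblasts and 7.52, 8.03 and 7.51 in cardiomyocytes. Adult arrays lay below all embryonic arrays, and embryonic fibroblast replicate 3 lay within the cardiomyocyte range. The means were 6.93 ± 0.12 in adult fibroblasts, 7.31 ± 0.32 in embryonic fibroblasts and 7.69 ± 0.30 in cardiomyocytes (SD, n = 3 each). The adult mean lay close to the 30th percentile of probe means, 6.91, and low values are where RMA compresses differences. Wnt5a was 1.69-fold lower in adult fibroblasts than in cardiomyocytes (-0.76 ± 0.18 SE, limma adjusted p = 0.00949), and the difference was -0.70 without adult replicate 3 (adjusted p = 0.0241). The neighbouring steps were not called, at -0.38 for adult minus embryonic fibroblasts (95% confidence interval -0.79 to 0.04, adjusted p = 0.203) and -0.38 for embryonic fibroblasts minus cardiomyocytes (-0.79 to 0.03, adjusted p = 0.199). Without embryonic fibroblast replicate 3, the second of these was -0.56 and called (adjusted p = 0.0419).

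Wnt11, which is required for normal outflow tract development in the mouse, had values of 7.34, 7.59 and 7.39 in adult fibroblasts, 7.36, 7.37 and 7.29 in embryonic fibroblasts and 7.09, 7.30 and 7.29 in cardiomyocytes. The adult fibroblast arrays lay above the cardiomyocyte arrays, and the embryonic fibroblasts overlapped both. The means were 7.44 ± 0.13 in adult fibroblasts, 7.34 ± 0.04 in embryonic fibroblasts and 7.23 ± 0.12 in cardiomyocytes (SD, n = 3 each). Adult fibroblasts minus cardiomyocytes was 0.22 for Wnt11, with a 95% confidence interval of 0.01 to 0.42 before adjustment, and was not called (limma adjusted p = 0.101). The other differences of Wnt11 were 0.11 for adult minus embryonic fibroblasts and 0.11 for embryonic fibroblasts minus cardiomyocytes.

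Among the 36 pairs of these genes, the profiles over the 9 arrays were farthest apart for Sfrp1 and Frzb. The root mean square distance between the profiles, each taken about its own mean, was 1.88 log2 units. The closest pair was Sfrp5 and Wnt11, at 0.102, both of which varied little. For the members whose highest and lowest group means lay more than 1 log2 unit apart, the 3 genes with the nearest profiles were looked up among 17017 genes. Nearest to Frzb were Fmnl2 (a formin, 0.135), Aspn (asporin, a small leucine-rich matrix proteoglycan, 0.179) and Kcnt2 (a potassium channel subunit, 0.206), where the median distance of all genes was 1.17. Aspn averaged 11.93 in adult fibroblasts, 10.17 in embryonic fibroblasts and 8.84 in cardiomyocytes. Nearest to Sfrp4 were Cxcl14 (a chemokine, 0.121), Thsd7a (0.148) and Lrrc49 (0.154). Nearest to Sfrp2 were Sema3d (a secreted semaphorin, 0.183), Raet1d (0.195, a member of a multigene family and so uncertain) and Cdh10 (a cadherin, 0.199). Nearest to Sfrp1 were Jkamp (0.129), Hikeshi (0.138) and Polr3k (a subunit of RNA polymerase III, 0.14). When the scaling was changed or an array left out, 0 to 3 of the 3 genes named for Sfrp1 remained, and 1 to 3 of those named for each of the others. These distances describe 9 arrays that fall into 3 groups, and many genes share such group means.

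**Figure D3:**
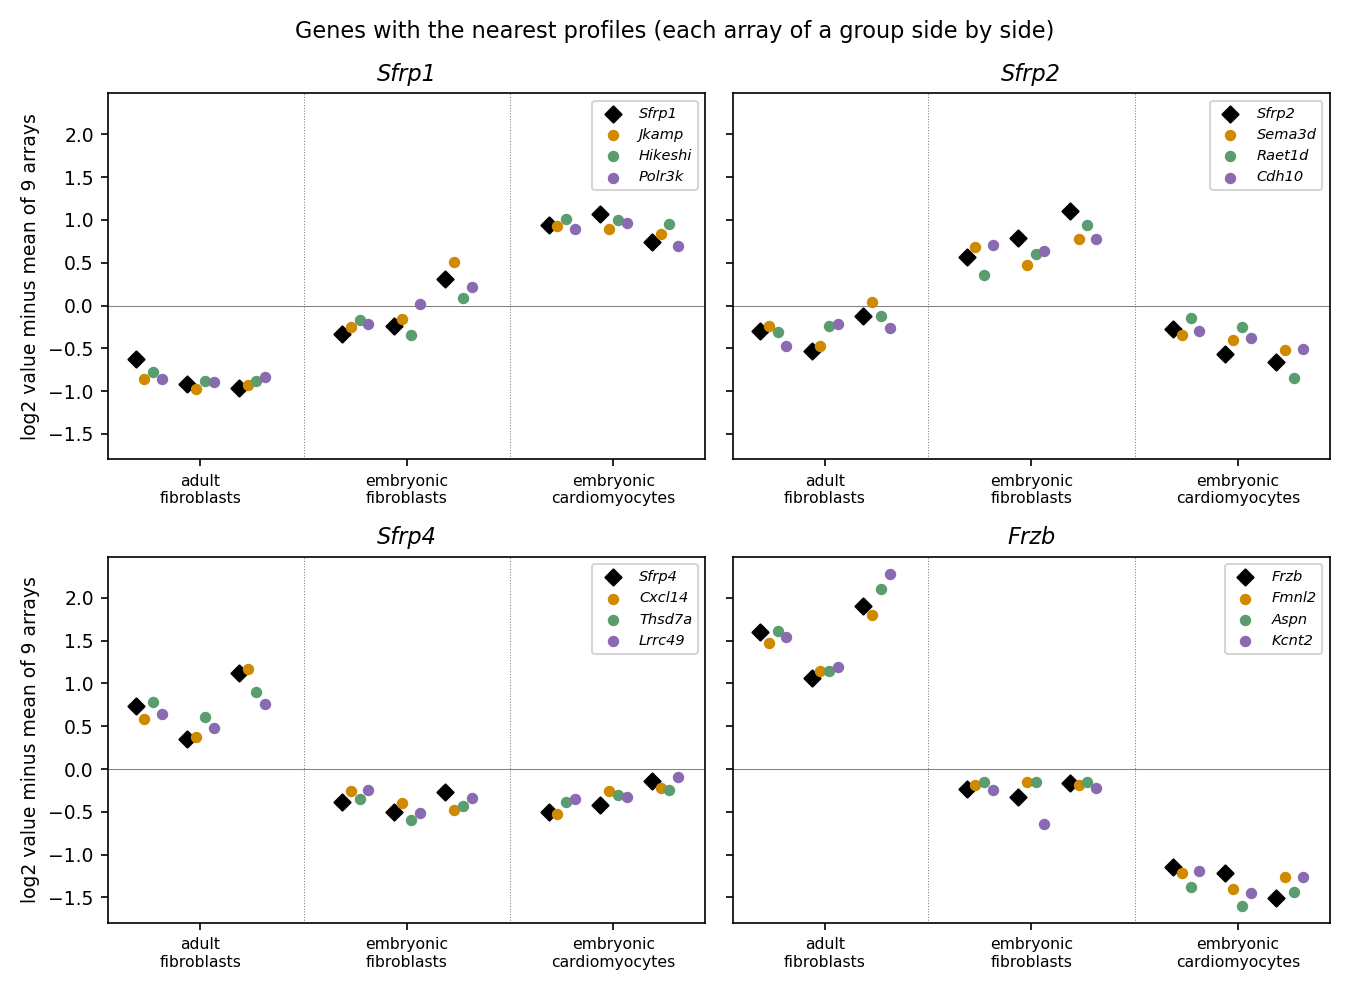
Profiles of Sfrp1, Sfrp2, Sfrp4 and Frzb (black diamonds) and of the 3 genes nearest to each (coloured points) over the 9 arrays, as log2 value minus the mean of the gene over all arrays (y axis), by group (x axis). The named genes follow the step of each member between groups, with root mean square distances from 0.121 to 0.206.

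The rest of the Wnt pathway was read from 7 lists with 100 measured genes, also chosen with earlier results of these data known. In adult against embryonic fibroblasts, 1 was called higher and 23 lower (24.0% called, beside 19.5% of all genes). With array centring these counts were 2 and 21, and with quantile normalization 4 and 20. In embryonic fibroblasts against cardiomyocytes, 15 were higher and 7 lower (22.0%, beside 21.4%), and in adult fibroblasts against cardiomyocytes 11 were higher and 25 lower (36.0%, beside 35.6%). The overall shares thus lay near those of all genes. Over all genes, 8.34% were higher and 11.2% lower, 10.3% and 11.1%, and 17.4% and 18.2% in these comparisons in turn, and the splits of direction among the pathway genes were not tested.

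**Figure D4:**
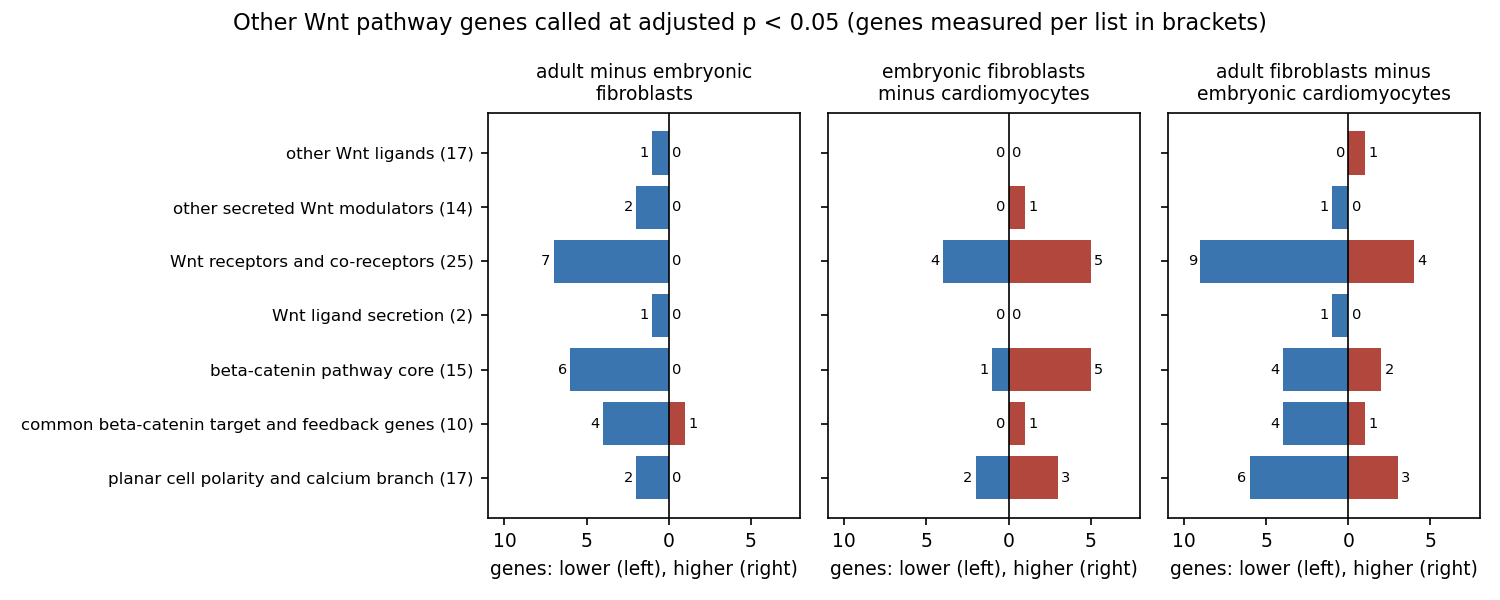
Number of genes called higher and lower in each of the 7 Wnt pathway lists, for each comparison (limma, adjusted p under 0.05). Between adult and embryonic fibroblasts the only gene called higher was Myc (2 genes were with array centring and 4 with quantile normalization). In the same comparison 7 of 25 receptor and co-receptor genes were called lower (28.0%, beside 19.5% of all genes called in either direction).

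Few of the other ligands and secreted modulators were called. Of 17 other Wnt genes, Wnt2 alone was called lower in adult than in embryonic fibroblasts, at 7.19 ± 0.21 and 7.61 ± 0.16 (SD, n = 3 each; difference -0.43, limma adjusted p = 0.0388), a call lost under 8 of 18 alternatives. No gene of this list was called between embryonic fibroblasts and cardiomyocytes, and Wnt10b alone was higher in adult fibroblasts than in cardiomyocytes (0.27, adjusted p = 0.0306), a call lost under 4 of 18. Of 14 other secreted modulators, the R-spondin gene Rspo3, whose product enhances Wnt signalling, was called lower in adult than in embryonic fibroblasts (-0.73, adjusted p = 0.0148, lost under 4 of 18 alternatives) and lower in adult fibroblasts than in cardiomyocytes (-1.09, adjusted p = 0.000774). Rspo3 averaged 6.91 ± 0.35 in adult fibroblasts, 7.64 ± 0.22 in embryonic fibroblasts and 8.0 ± 0.08 in cardiomyocytes (SD, n = 3 each). Its adult mean lay at the 30th percentile of probe means, and low values are where RMA compresses differences. Igfbp4, a binding protein of insulin-like growth factors that also inhibits canonical Wnt signalling, peaked in embryonic fibroblasts as Sfrp2 did. It averaged 8.46 ± 0.08 in adult fibroblasts, 9.0 ± 0.29 in embryonic fibroblasts and 8.36 ± 0.06 in cardiomyocytes, and was called in both comparisons with embryonic fibroblasts (-0.54, adjusted p = 0.0171, lost under 3 of 18 alternatives, and 0.64, adjusted p = 0.00726).

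Of 25 receptor and co-receptor genes, 7 were lower in adult than in embryonic fibroblasts and none higher (1 higher and 6 lower with quantile normalization). This was 28.0% called, beside 19.5% of all genes, and the list's median difference was -0.20. Of the 7, the calls of Fzd7 and Ryk were lost under 12 and 2 of 18 alternatives. The Frizzled receptor gene Fzd3 had values of 7.20, 7.30 and 7.42 in adult fibroblasts, 9.14, 9.19 and 9.11 in embryonic fibroblasts and 9.02, 9.19 and 8.95 in cardiomyocytes. It was thus low only on adult arrays, with a difference from embryonic fibroblasts of -1.84 ± 0.09 (SE, limma adjusted p = 1.97e-06). Mcam, a cell adhesion molecule that can bind Wnt5a, was likewise lower in adult fibroblasts, at 8.83 ± 0.20 against 10.47 ± 0.10 in embryonic fibroblasts (-1.64, adjusted p = 1.12e-05). Fzd4 peaked in embryonic fibroblasts, at 8.29 ± 0.23 in adult fibroblasts, 9.15 ± 0.14 in embryonic fibroblasts and 7.81 ± 0.09 in cardiomyocytes (SD, n = 3 each). Fzd6 was also lower in adult than in embryonic fibroblasts (-0.78, adjusted p = 0.000479). Against cardiomyocytes, embryonic fibroblasts had 5 receptor genes higher and 4 lower (36.0% called, beside 21.4% of all genes). Among the higher were Fzd4 (1.34, adjusted p = 0.000172) and Fzd7 (0.98, adjusted p = 0.000336). The 4 lower included Lgr4, a receptor of R-spondins (-1.38, adjusted p = 0.00276), Ror1, a receptor of Wnt5a (-0.91, adjusted p = 0.000388), and Fzd2 (-0.85, adjusted p = 0.00154). Gpc4 was also among the lower, a call lost under 7 of 18 alternatives. Lgr4 averaged 7.66 ± 0.16 in adult fibroblasts, 8.27 ± 0.56 in embryonic fibroblasts and 9.65 ± 0.11 in cardiomyocytes, and embryonic fibroblast replicate 3 was the array nearest the cardiomyocytes here too, at 8.91. Between adult fibroblasts and cardiomyocytes, 4 of the 25 receptor genes were higher and 9 lower in the fibroblasts (52.0% called, beside 35.6% of all genes). The largest in each direction were Fzd7 (0.62) and Lgr4 (-1.99), and the calls of Kremen1 and Fzd4 were lost under 8 and 1 of 18 alternatives. Of the genes of the co-receptors that Dkk2 binds, Lrp6 was higher in embryonic fibroblasts than in cardiomyocytes (0.45, adjusted p = 0.0074) and higher in adult fibroblasts than in cardiomyocytes (0.39, adjusted p = 0.00813). Lrp6 averaged 10.10 ± 0.13 in adult fibroblasts, 10.15 ± 0.06 in embryonic fibroblasts and 9.70 ± 0.12 in cardiomyocytes (SD, n = 3 each). Lrp5 was called in no comparison, with means of 8.18 in adult fibroblasts, 8.33 in embryonic fibroblasts and 8.05 in cardiomyocytes.

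Of the ligand secretion genes Wls and Porcn, Wls, which carries Wnt proteins to the cell surface, was lower in adult fibroblasts, at 9.72 ± 0.32, than in embryonic fibroblasts, at 10.65 ± 0.09 (-0.92, limma adjusted p = 0.00359). Of 15 genes of the beta-catenin core, 6 were lower and 0 higher in adult than in embryonic fibroblasts (4 and 1 with quantile normalization), among them Bcl9, a beta-catenin co-activator (-1.29, adjusted p = 5.68e-05), and the TCF factor gene Tcf7l2 (-0.85, adjusted p = 0.000336). Against cardiomyocytes, embryonic fibroblasts had 5 of the 15 higher, with Tcf7l1 at 0.64, and Bcl9 alone lower at -0.53. The gene of beta-catenin itself, Ctnnb1, averaged 10.64 ± 0.62 in adult fibroblasts, 11.12 ± 0.20 in embryonic fibroblasts and 10.76 ± 0.12 in cardiomyocytes (SD, n = 3 each). Its adult values were 10.85, 11.14 and 9.94, the lowest on replicate 3. It was not called for adult minus embryonic fibroblasts (adjusted p = 0.259), embryonic fibroblasts minus cardiomyocytes (0.419) or adult fibroblasts minus cardiomyocytes (0.769).

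Of 10 common target and feedback genes measured, 5 were called between adult and embryonic fibroblasts (beside 19.5% of all genes), 1 between embryonic fibroblasts and cardiomyocytes (beside 21.4%) and 5 between adult fibroblasts and cardiomyocytes (beside 35.6%). Between the fibroblast groups, Lef1 (-0.48), Ccnd1 (-0.57), Ccn4 (-0.45) and Nkd1 (-0.39) were lower and Myc (0.72, limma adjusted p = 0.0135) higher in adult than in embryonic fibroblasts, and the calls of Myc and Ccn4 were each lost under 2 of 18 alternatives. Axin2, a widely used readout of beta-catenin signalling, averaged 7.81 ± 0.17 in adult fibroblasts, 7.94 ± 0.06 in embryonic fibroblasts and 7.94 ± 0.02 in cardiomyocytes (SD, n = 3 each) and was called in no comparison. Myc, which many pathways regulate, was 12.46 ± 0.21 in adult fibroblasts, 11.75 ± 0.12 in embryonic fibroblasts and 8.86 ± 0.32 in cardiomyocytes. Between adult fibroblasts and cardiomyocytes, the calls of Ccnd1, Lef1 and Nkd1 were lost under 9, 6 and 2 of 18 alternatives. Of 17 genes of the planar cell polarity and calcium branch, through which Wnt5a and Wnt11 can act, 2 were lower in adult than in embryonic fibroblasts, the calcium-dependent kinase gene Camk2d (-0.53, adjusted p = 0.00312) and Prickle1 (-0.42, adjusted p = 0.0157, lost under 1 of 18 alternatives). Against cardiomyocytes, embryonic fibroblasts had Prickle2 (1.04), Nfatc1 (1.02) and Rac1 (0.24) higher and Camk2d (-0.48) and Prickle1 (-0.36) lower. Of these calls, that of Rac1 was lost under 9 of 18 alternatives and that of Prickle1 under 6. In adult fibroblasts against cardiomyocytes 3 of the 17 were higher and 6 lower (52.9% called, beside 35.6% of all genes). They were led by Nfatc1 (0.93) and Camk2d (-1.01). Calls lost under alternatives there were those of Celsr1 (10 of 18), Vangl2 (8), Daam1 (3), Vangl1 (3) and Rac1 (1). Of the 17 genes, 11.8% were called between the fibroblast groups (beside 19.5%) and 29.4% between the embryonic groups (beside 21.4%).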

How the data were processed

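The log2 values deposited by the authors are RMA values (version unstated), per the submitters' processing notes. This method corrects background, normalizes arrays and summarizes the probes of a transcript. The log base was read from the values, which run from 2.70 to 14.20. RNA was extracted with Trizol and labelled with an Ambion MessageAmp II-biotin kit, per the labels' protocols. Genome build and annotation of the probes are not stated in these sources.

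The platform annotation named the probes: of 28767 in the table, 21776 had 1 symbol, and 21686 of these matched the RefSeq gene table, which changed 0 symbols. Each gene was read from its probe with the highest mean, which gave 19933 genes, and each of the 9 genes described had 1 such probe, shared with no other gene. Groups and replicates came from the sample titles. The values of all 9 arrays were fitted with limma 3.58.1 (lmFit, eBayes) in R 4.3.3, with a mean per group and no covariate or dim filter (median 9.21 degrees of freedom). Tests were two-sided, with Benjamini-Hochberg adjustment over the 19933 genes. The fit was tested on simulated data. Array replicates number 3 per group, which limits the precision. No fold is a ratio of concentrations, since RMA compresses low values. Promoters came from the RefSeq window table, and figures from matplotlib 3.10.9 in Python 3.11.15.

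The genes, pathway and marker lists were chosen with earlier results of these data known. Named beyond the 9 genes were up to 4 called genes per pathway list and direction by size of difference, and the 3 nearest profiles of genes whose group means span over 1 log2 unit. Axin2, Ctnnb1, Lrp5, Lrp6 between the embryonic groups, and single marker genes were named after their values were seen. Alternatives were array centring, quantile normalization, array weights, a filter at the 30th percentile (leaving out 5265 genes), the mean of all probes, fits of 2 groups, a trended robust prior, the replicate number as a block, each array left out, and replicate 3 of both fibroblast groups left out together. Their use on the lists and on nearest profiles was chosen after seeing the data.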

Additional observations from a re-analysis of the deposited data

How the results depend on the processing

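Each of the 27 differences of the 9 genes was refitted under 18 alternatives. Of 13 called differences, 11 stayed called with the same direction under all 18, and the exceptions were those of Dkk2. Of 14 differences not called, 13 stayed so, the exception being Wnt5a between the embryonic groups. For Dkk2 in adult minus embryonic fibroblasts, limma adjusted p ran from 0.00575 to 0.0881. It missed the threshold with quantile normalization (0.0533), in the fit of 2 groups (0.0775) and without adult replicate 1 (0.0739) or embryonic fibroblast replicates 2 (0.0881) or 3 (0.0535). For Dkk2 in embryonic fibroblasts minus cardiomyocytes it ran from 0.0147 to 0.167, and missed the threshold with centring (0.0529), with quantile normalization (0.0642) and with 6 of the 9 arrays left out in turn. Wnt5a in embryonic fibroblasts minus cardiomyocytes ran from 0.0184 to 0.543 and was called with array weights (-0.57), without embryonic fibroblast replicate 3 (-0.56) and without replicate 3 of both fibroblast groups (-0.56). The cause of these changes was not tested.

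Signs turned only for differences close to 0 that were not called. Sfrp5 in embryonic fibroblasts minus cardiomyocytes was -0.001 with quantile normalization and -0.008 with array weights, and -0.11 to 0.094 with an array left out. Sfrp5 in adult fibroblasts minus cardiomyocytes was -0.005 with array weights, and -0.062 to 0.142 with an array left out. Sfrp4 in embryonic fibroblasts minus cardiomyocytes ran from -0.105 to 0.078, and Dkk2 in adult fibroblasts minus cardiomyocytes from -0.177 to 0.065, with an array left out.

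With array weights, which gave adult replicate 3 the lowest weight (0.215), all genes called higher in adult than in embryonic fibroblasts numbered 2519. Between embryonic fibroblasts and cardiomyocytes there were then 3103 higher and 3362 lower, with 2 of the 9 genes lower and 13 pathway genes lower. With an array left out, genes called lower in embryonic fibroblasts than in cardiomyocytes numbered 1452 (without embryonic fibroblast replicate 2) to 2830, and 1 to 2 of the 9 genes were lower. Without replicate 3 of both fibroblast groups, 2 of the 9 were lower there, and 0 pathway genes were higher in adult than in embryonic fibroblasts. That last count was 2 with centring, 4 with quantile normalization and 0 to 2 with an array left out, while 16 to 22 pathway genes were lower with an array left out. With an array left out, pathway genes lower in embryonic fibroblasts than in cardiomyocytes numbered 5 to 12 (12 without adult replicate 3). In adult fibroblasts against cardiomyocytes they numbered 7 to 11 higher (7 without cardiomyocyte replicate 3) and 16 to 23 lower (16 without cardiomyocyte replicate 2). Of 82 called pathway differences, 54 stayed called under all alternatives.

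Deviations of same-numbered replicates from their group means correlated at -0.195 to 0.198. Replicates with different numbers were not compared, so whether the numbers pair the samples cannot be told from these values. With the replicate block, no call among the 9 genes changed (2 higher and 3 lower, 3 and 1, and 2 and 2 in the comparisons as ordered in the report). The precision is limited by 3 arrays a group, and each p-value sets a difference of group means against the spread of arrays within groups. In the main fit, limma pooled that spread over the 3 groups and drew it towards that of all genes.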
